A study of Arabidopsis thaliana with 4 samples.

Results

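The 6 genes described here are 4 auxin-response genes and 2 wall-loosening XTH genes of Arabidopsis thaliana. On the array, 13286 genes could be named through the platform gene table. They were chosen by probe set for WES1 (253908_at), GH3.3 (245076_at), IAA29 (253423_at) and IAA19 (258399_at), and by gene symbol for XTH18 (253628_at) and XTH19 (253608_at). The choice was made with the difference between php and wild-type already known, so that difference is given for them as a description. All 6 passed the filter on dim probe sets. The probe set of IAA19 is not in the platform gene table used here and takes its name from the rule that chose it.

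The arrays compared php mutant plants with wild-type plants, both grown on soil and harvested at 14 days of age as above-ground tissue. Each genotype had 2 Affymetrix ATH1 arrays, replicates I and II, and each array held RNA of 3 independently derived samples. The labels give neither the php allele nor the background strain. PHP is the plant counterpart of parafibromin, a protein of the PAF1 complex that accompanies RNA polymerase II during elongation. The level of PHP itself was not analysed here and gives no check of the genotypes.

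Auxin acts by bringing Aux/IAA repressors to the receptor TIR1 and its relatives, which mark them for breakdown and so free the auxin response factors to act on their targets. Early targets include the Aux/IAA genes themselves and the GH3 genes, whose enzymes join auxin to amino acids, so both families feed back on the response. XTH enzymes cut xyloglucan chains in the cell wall and rejoin them, and several are induced by auxin, brassinosteroids or touch. Low red to far-red light and warmth raise IAA19 and IAA29 in shoots through the PIF transcription factors.

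All 6 genes had a higher mean level in php than in wild-type, by 0.77 to 1.42 on the log2 scale, where 1 is a 2-fold difference. The 4 auxin-response genes were higher on both php arrays than on either wild-type array, and so was XTH19, while XTH18 overlapped between the genotypes. Both php arrays lay above both wild-type arrays for 33.2% of the 15922 probe sets tested, beside which 5 of these 6 stand. At a limma adjusted p under 0.05 the fit across the array called 0 of the 6, with 3 of them, WES1, IAA19 and XTH19, at an unadjusted p under 0.05. It called 0.0314% of the probe sets tested, 5 in all, and 24.2% had an unadjusted p under 0.05. These counts only describe the members, whose choice used the same difference. In whole shoots, a change in the number of cells of a type and a change in RNA per cell cannot be told apart.

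**Figure D1:**
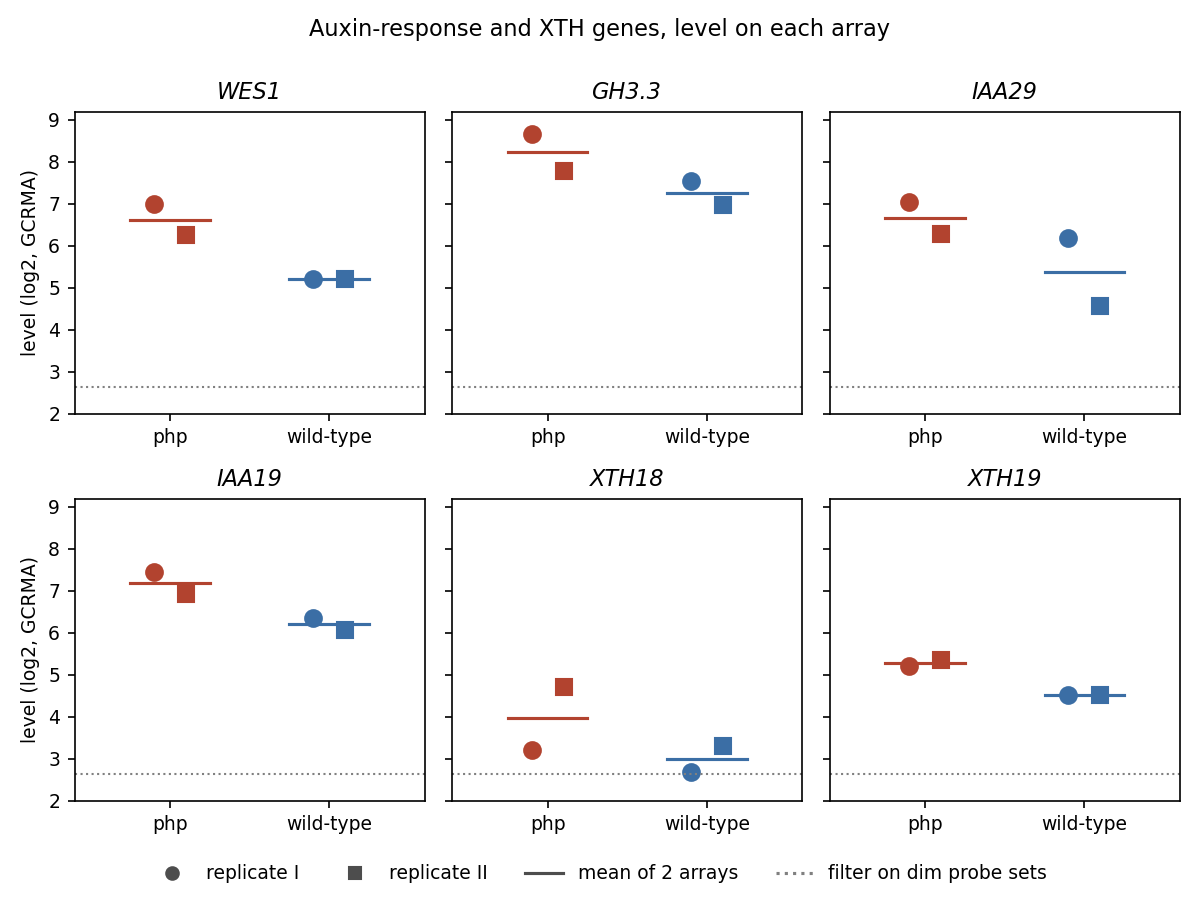
Level of each gene on each array (log2, GCRMA), with php on the left and wild-type on the right of each panel, circles for replicate I, squares for replicate II and a bar for the mean of 2 arrays; the dotted line is the filter on dim probe sets, at a mean of 2.64. WES1 and XTH19 had closely matching wild-type arrays, while XTH18 reached 4.72 on one php array and lay near the dotted line on wild-type I.

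WES1, also called GH3.5, encodes an enzyme that conjugates auxin, and also salicylate, to aspartate. Its level was 6.98 and 6.27 on php I and II, against 5.21 and 5.21 on wild-type I and II. The wild-type arrays were nearly equal, and the whole spread lay between the php arrays. The mean was 6.63 ± 0.51 in php and 5.21 ± 0.0009 in wild-type (log2, SD, n = 2 arrays each), a difference of 1.42 or 2.67-fold, the largest of the 6. With 1 array left out at a time it stayed between 1.06 and 1.78.

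GH3.3, another auxin-conjugating enzyme and a commonly used auxin-response marker, was at 8.66 and 7.79 on php I and II, against 7.55 and 6.98 on wild-type I and II. Replicate I was the higher array in both genotypes, and php II exceeded wild-type I by only 0.24. The means were 8.23 ± 0.62 in php and 7.27 ± 0.40 in wild-type, a difference of 0.96 or 1.95-fold. That difference was 0.53 without php replicate I.

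IAA29 encodes an Aux/IAA protein. Its level was 7.05 and 6.28 on php I and II, against 6.19 and 4.55 on wild-type I and II. Wild-type II stood far below the other 3 arrays, and php II and wild-type I differed by 0.093. The means were 6.67 ± 0.55 in php and 5.37 ± 1.15 in wild-type, a difference of 1.30 or 2.46-fold, which was 2.11 without wild-type replicate I and 0.48 when wild-type replicate II was left out instead.

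IAA19, also called MASSUGU 2, encodes an Aux/IAA repressor known from hypocotyl bending towards light. It was at 7.45 and 6.91 on php I and II, against 6.36 and 6.06 on wild-type I and II. Both php arrays lay above both wild-type arrays, with 0.55 between the nearest ones. The means were 7.18 ± 0.38 in php and 6.21 ± 0.22 in wild-type, a difference of 0.97 or 1.96-fold, which ran from 0.70 to 1.24 with 1 array left out at a time.

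XTH19 was at 5.21 and 5.35 on php I and II, against 4.52 and 4.51 on wild-type I and II. The 2 arrays of each genotype were close to each other, so XTH19 was separated between the genotypes with the least spread of the 6. The means were 5.28 ± 0.097 in php and 4.51 ± 0.0035 in wild-type, a difference of 0.77 or 1.70-fold, which stayed between 0.70 and 0.84 with 1 array left out at a time.

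XTH18 was at 3.20 and 4.72 on php I and II, against 2.68 and 3.29 on wild-type I and II. The php I array lay below wild-type II, so the genotypes overlapped, and php II carried most of the difference. The means were 3.96 ± 1.07 in php and 2.99 ± 0.43 in wild-type, a difference of 0.97, which was 1.73 without php replicate I and 0.21 when php replicate II was left out instead. Wild-type I was near background, since the 3 control probe sets for the bacterial trp transcript, which has no plant target, read 2.28 to 2.68 over the 4 arrays, so no fold is given. XTH18 and XTH19 stand next to each other on chromosome 4 in the TAIR10.1 gene order, with 0 gene models between them. Whether each probe set also picks up the transcript of the other gene was not tested, and their profiles over the arrays were not alike.

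**Figure D2:**
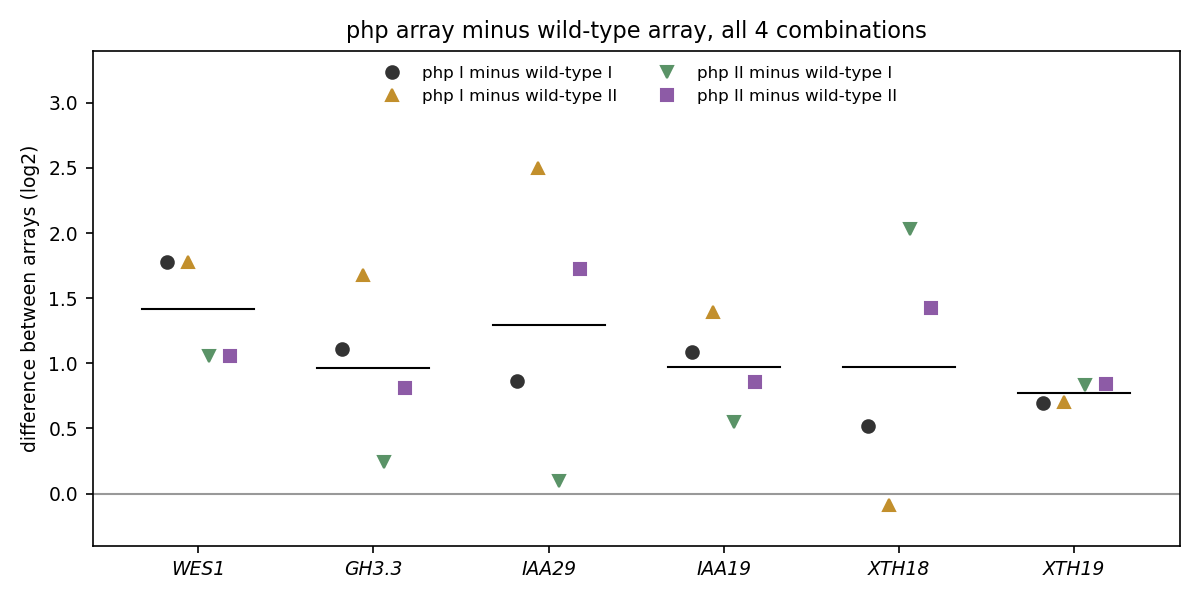
Difference in log2 level between a php array and a wild-type array for each gene, in all 4 combinations of arrays (symbols), with a black line at the difference of the means. The values for XTH19 lie between 0.70 and 0.84, those for IAA29 between 0.09 and 2.50, and only XTH18 has a value below 0, at -0.09.

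Set array by array, the differences between php and wild-type were positive in all 4 combinations of arrays for WES1, GH3.3, IAA29, IAA19 and XTH19. They ran from 1.06 to 1.78 for WES1, from 0.24 to 1.68 for GH3.3, from 0.09 to 2.50 for IAA29 and from 0.55 to 1.39 for IAA19. XTH18 ran from -0.09 to 2.03. Between arrays with the same replicate number, all 6 genes were higher in php, by 0.52 to 1.78 for replicate I and by 0.81 to 1.72 for replicate II. The median over the 6 was 0.98 for replicate I and 0.96 for replicate II, while that over all probe sets tested was 0.017 and 0.0076. Since the choice of the 6 used the difference on these same arrays, this contrast is a description only. The labels do not say that a replicate number marks a shared batch or day.

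Within the genotypes, the 6 genes did not move together between the replicates. The 4 auxin-response genes were all lower on php II than on php I, by 0.53 to 0.87. In wild-type, 3 of the 4 were also lower on replicate II, IAA29 with a difference of -1.63, GH3.3 with -0.57 and IAA19 with -0.31, while the wild-type arrays differed by 0.0013 for WES1. XTH18 went the other way and was higher on replicate II in both genotypes, by 1.52 in php and 0.61 in wild-type. XTH19 hardly moved, by 0.14 in php and -0.0049 in wild-type.

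Replicate II was below replicate I in both genotypes for 36.6% of the probe sets tested and for 3 of these 6, and above it in both for 23.3% and for 1 of these 6. Over all probe sets tested the median shift was -0.023 in php and -0.01 in wild-type. The genes were chosen with earlier results of these data known, so the ranks of their shifts among all probe sets only describe them. Averaged over the genotypes, IAA29 shifted by -1.20, a value that 0.0126% of the probe sets tested matched or fell below, and GH3.3 by -0.72, which 0.176% matched or fell below. IAA19 shifted by -0.42 and WES1 by -0.36, which 1.17% and 1.90% of probe sets matched or fell below. For WES1 that average came from php alone, with -0.72 in php and 0.0013 in wild-type. XTH18 shifted by 1.06, which 0.842% matched or exceeded. Each share counts the gene itself. These shifts are given as a description and were not tested.

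The early touch genes moved with replicate II in the direction of XTH18. STZ, a zinc finger protein gene, was at 7.15 and 10.14 on php I and II, against 5.66 and 9.32 on wild-type I and II. CML38, a calmodulin-like protein gene, was at 6.77 and 9.53 on php I and II, against 5.97 and 8.48 on wild-type I and II. Both were well over 2-fold higher on replicate II in each genotype, and the genotypes overlapped. These were the 2 measured of 10 touch genes listed, and 0 passed the test between genotypes (limma adjusted p = 0.695 and 0.691, 0 at an unadjusted p under 0.05). The part of handling or touch in the levels of XTH18 was not tested.

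**Figure D3:**
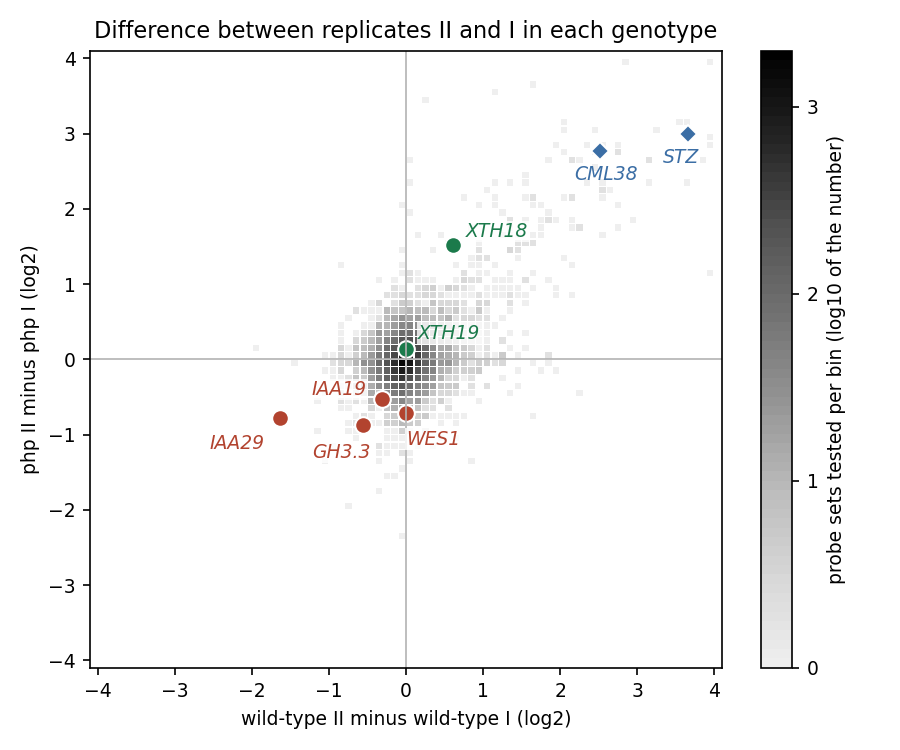
Difference between replicates II and I (log2) in php, on the vertical axis, and in wild-type, on the horizontal axis, for auxin-response genes (red), XTH genes (green) and touch genes (blue diamonds), over all 15922 probe sets tested, binned and shaded by number, with values beyond 4 drawn at the edge. IAA29, GH3.3 and IAA19 lie in the lower left, WES1 below the centre on the vertical zero line, XTH19 near the centre, and XTH18 in the upper right, as do STZ and CML38.

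The profiles of the 6 genes over the 4 arrays, each centred on its own mean, were compared by root-mean-square distance on the log2 scale. GH3.3 and IAA19 were closest, at 0.15, and IAA29 and XTH18 farthest apart, at 1.14. The neighbouring genes XTH18 and XTH19 were 0.54 apart, and XTH19 was nearer to IAA19, at 0.28. Distances grow with the size of a difference and say nothing of control.

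Among 8845 named probe sets compared, the profile nearest to XTH19 was that of AT1G62500, at 0.019. It was at 9.31 and 9.45 on php I and II, against 8.66 and 8.62 on wild-type I and II. AT3G20300 was the next for XTH19, at 0.041. AT1G03020 was nearest to WES1, at 0.042, with 5.10 and 4.47 on php I and II, against 3.43 and 3.36 on wild-type I and II, and AT2G14900 followed at 0.14. These profiles share the higher php arrays and close wild-type arrays of the genes they were matched to.

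AT1G61500 was nearest to GH3.3, at 0.066, and AT5G35260 was the next, at 0.16. AT5G35260 was also the nearest to IAA19, at 0.078, where CYP71B22, a cytochrome P450 gene, followed at 0.11. The wild-type arrays of CYP71B22 read 2.62 and 2.44, within the 2.28 to 2.68 of the trp controls. IAA29 had the least close neighbours of the 6, AT5G58570 at 0.21 and AT5G62280 at 0.35. AT5G62280 was at 8.55 and 8.12 on php I and II, against 7.88 and 6.997 on wild-type I and II. It had the low wild-type II array and the php arrays above wild-type I that IAA29 also had. For XTH18 the nearest were PUB22, a U-box ubiquitin ligase gene, at 0.16 and AT1G20823 at 0.17. PUB22 was at 2.94 and 4.60 on php I and II, against 2.77 and 2.97 on wild-type I and II. It stood out on php II alone, and its other arrays lay near background, just above the trp controls. With 4 arrays, such likeness describes these arrays only.

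Of 183 genes listed for auxin, the wall and growth, 177 are not among the 6, and of these 31 had a named probe set and 20 passed the filter and were tested. Of these 20, limma called 0 in either direction, with 3 higher and 1 lower in php at an unadjusted p under 0.05. Across the whole array, 24.2% of the tested probe sets reached that same unadjusted level in one direction or the other. The median difference of the 20 was 0.11 on the log2 scale, against 0.0058 over all probe sets tested. Differences of the 20 ranged from -0.47 to 0.96. Both php arrays were above both wild-type arrays for 8 and below for 4 of the 20, where 33.2% and 27.4% of all probe sets tested did so. The listed SAUR, auxin response factor, auxin receptor, auxin transport and brassinosteroid genes were not analysed here.

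**Figure D4:**
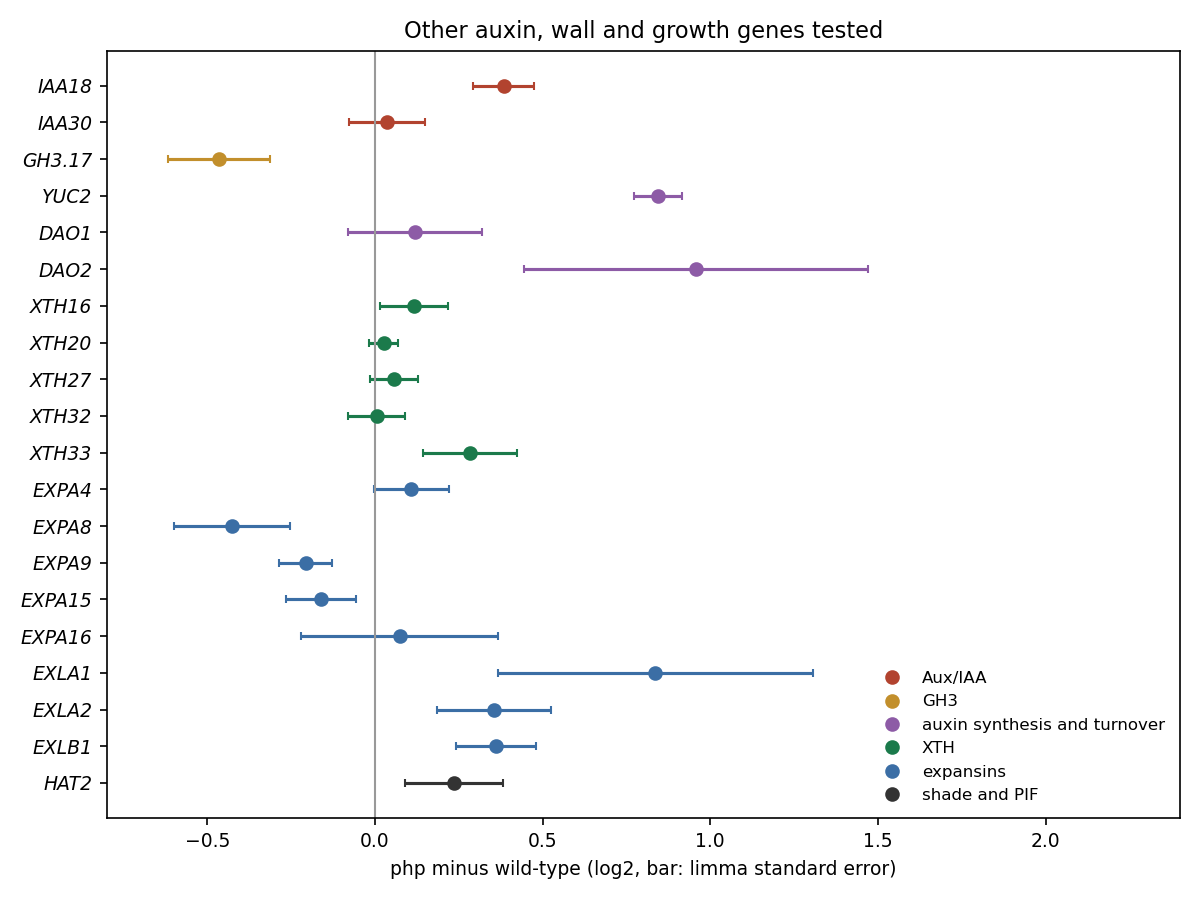
Difference between php and wild-type (log2, php minus wild-type, points) with limma's standard error (bars) for the 20 other listed genes that were tested, coloured by list. DAO2, YUC2 and EXLA1 lie farthest to the right, at 0.96, 0.84 and 0.84, and GH3.17 farthest to the left, at -0.47.

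In the list of auxin synthesis and turnover, 3 of 19 genes were tested and limma called 0, with 1 at an unadjusted p under 0.05 and a median difference of 0.84. YUC2 encodes a flavin monooxygenase of the last step of auxin synthesis. It was at 4.63 and 4.66 on php I and II, against 3.83 and 3.77 on wild-type I and II, so the genotypes were apart by far more than their arrays. The log2 difference was 0.84 (SE 0.072), or 1.80-fold, and limma's adjusted p was 0.084, within 0.0775 to 0.408 over 9 alternatives. DAO2, a relative of the auxin oxidase gene DAO1, was at 5.05 and 3.61 on php I and II, against 3.37 and 3.37 on wild-type I and II. Its difference of 0.96 (limma adjusted p = 0.330) was 0.24 without php replicate I. DAO1, which encodes a dioxygenase that inactivates auxin, differed by 0.12 (limma adjusted p = 0.740) and overlapped between genotypes, with -0.15 without php replicate I. Without php replicate I the list's median was 0.24.

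Among the other Aux/IAA genes, 2 were tested and limma called 0, with 1 at an unadjusted p under 0.05. IAA18 was at 8.28 and 8.37 on php I and II, against 7.86 and 8.02 on wild-type I and II, a difference of 0.38 (SE 0.091, limma adjusted p = 0.134). IAA30 was dim, at 2.89 ± 0.014 in php and 2.86 ± 0.20 in wild-type, and overlapped between genotypes (limma adjusted p = 0.861). The other measured Aux/IAA genes, IAA20, IAA31, IAA33 and IAA34, lay under the filter. Of the other GH3 genes, GH3.17 alone was tested. It encodes an enzyme that joins auxin to glutamate, and it stood opposite to WES1 and GH3.3, at 5.14 and 5.17 on php I and II, against 5.44 and 5.80 on wild-type I and II. Its difference was -0.47 (SE 0.15, limma adjusted p = 0.186), or -0.29 without wild-type replicate II.

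Of 23 other XTH genes listed, 7 were measured and 5 tested, and these 5 differed little. Of the 5, limma called 0, with 0 at an unadjusted p under 0.05. Their differences ran from 0.005 to 0.28 with a median of 0.056, and the median lay between 0.018 and 0.13 with 1 array left out at a time. XTH33 was dim, at 3.20 and 2.82 on php I and II, against 2.73 and 2.72 on wild-type I and II, with a difference of 0.28 (limma adjusted p = 0.301), or 0.098 without php replicate I. The well-measured XTH16 and XTH27, the second also called EXGT-A3, were at 8.98 ± 0.13 and 10.98 ± 0.11 in php, against 8.86 ± 0.11 and 10.93 ± 0.047 in wild-type, differences of 0.12 and 0.056 (limma adjusted p = 0.514 and 0.657). XTH20 lay near the floor in both genotypes, with a difference of 0.026 (limma adjusted p = 0.748).

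Expansins loosen walls without cutting their chains. Of 8 tested genes of this superfamily, limma called 0, with 1 at an unadjusted p under 0.05. Their median difference was 0.091, or -0.023 without php replicate II. The expansin-like gene EXLA1 was at 8.70 and 9.49 on php I and II, against 7.74 and 8.78 on wild-type I and II. It was higher on replicate II in both genotypes, like XTH18, and overlapped between them, with a difference of 0.84 (limma adjusted p = 0.345) that was 0.31 without wild-type replicate I. EXPA8 was lower on both php arrays, at 10.12 and 9.75 on php I and II, against 10.51 and 10.22 on wild-type I and II, a difference of -0.43 (limma adjusted p = 0.239), or -0.24 without php replicate II. EXLB1 and EXLA2 differed by 0.36 and 0.35 (limma adjusted p = 0.191 and 0.293), and EXLA2 by 0.15 without wild-type replicate II. Of the shade and PIF list, only HAT2, an auxin-induced homeodomain gene, was tested. It differed by 0.24 (limma adjusted p = 0.377), or 0.063 without php replicate I. The clock gene GI, which was the 1 gene tested of its list, differed by 0.43 and did not pass (limma adjusted p = 0.112). It had an unadjusted p under 0.05, as did 24.2% of all probe sets tested.

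Measures of tissue and RNA across the arrays stand beside these values. The 5 measured of 9 leaf markers were at 13.46 or above on every array, and the 3 measured of 6 flower markers, AMS, SPL and INO, were at 2.29 or below, under the filter. Of 5 root markers 2 were measured, and their summed linear level was 5091 and 4626 on php I and II, against 3254 and 3757 on wild-type I and II. Nearly all of it was PYK10, at 12.31 and 12.17 on php I and II, against 11.67 and 11.87 on wild-type I and II. PYK10 is also known from seedling shoots, and its tissue of origin here was not tested. The root hair gene EXPA7 was at 1.93 or below. The 25S rRNA control probe set read 6.30 and 6.97 on php I and II, against 5.40 and 5.50 on wild-type I and II. The 18 probe sets of bacterial transcripts added at hybridization were higher in php by a median of 0.35. The part of tissue makeup, rRNA and spike-in signal in the differences of the 6 genes was not tested.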

How the data were processed

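The deposited values are log2 levels per probe set of 4 ATH1 arrays. The authors made them from CEL files with GCRMA, which adjusts for background and normalizes, per the series' design text. The submitters' processing notes also name MAS5 without saying what for, and give no versions. The table held 22810 probe sets. The 64 controls and the 6824 dimmest probe sets (30%, mean log2 level up to 2.64) were left out, and 15922 were tested. Array medians were 5.59 to 5.64, so no further normalization was applied. A platform table named 13513 probe sets with 1 gene, of which 13436 were matched to a locus of TAIR10.1 (RefSeq), which was used for names and gene order only. The 8730 other probe sets that are not controls and are not in that table are unnamed here, apart from that of IAA19.

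Each probe set was compared between php and wild-type in limma 3.58.1 under R 4.3.3 (lmFit, eBayes with trend, two-sided, Benjamini-Hochberg over all probe sets tested, called at an adjusted p under 0.05). The fit was also run on simulated data with independent noise on each array. Same-numbered arrays here deviated together (r = 0.52), so that run is no check of the p-values for these arrays. An exact test of 2 arrays against 2 cannot give a p below 0.333, so p-values rest on the model. Arrays have no read depth, and their number limits the precision. Level ± values are SD over 2 arrays.

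The members and the gene lists were chosen with earlier results of these data known. The genes named were the 6 members, per list the called genes and up to 4 with the largest difference, the 2 nearest profiles to each member, and the measured markers. The brightest probe set was to stand for each listed gene, but each measured gene had only 1 named probe set. Alternatives were other filters, no trend, a replicate block, quantile normalization, median centring and leaving out each array. Averaging the probe sets of a gene was also run, but with 1 probe set a gene it could change nothing. Plots were made in Python 3.11.15 using matplotlib 3.10.9.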

Additional observations from a re-analysis of the deposited data

How the results depend on the processing

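The count of 5 probe sets called between php and wild-type was 0 without the filter on dim probe sets, 21 with the lowest 50% left out, 0 with the replicate number as a block, and 0 to 0 with 1 array left out at a time, with 1913 to 8020 at an unadjusted p under 0.05 in the settings that called 0. It was 5 without the trend and with median centring and 6 with quantile normalization. The 0 calls among the other auxin, wall and growth genes stayed 0 under each alternative that kept all 4 arrays. In the main setting 4 of 20 had an unadjusted p under 0.05, beside 24.2% of all probe sets tested. With the lowest 50% left out 2 of 12 did so, and without the filter 9 of 31. Across the array, 3151 probe sets did so with the lowest 50% left out and 8020 without the filter. The number of probe sets tested differed between these settings, so the array-wide counts cannot be read as shares beside those of the list. Same-numbered arrays deviated together between the genotypes (r = 0.52 across probe sets), but with 2 numbers and no label that says what they share, the block was not used in the report.

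Quantile normalization and median centring moved no difference of the 6 members beyond the SD between arrays. With 1 array left out at a time the differences ran from 1.06 to 1.78 for WES1, 0.53 to 1.40 for GH3.3, 0.48 to 2.11 for IAA29, 0.70 to 1.24 for IAA19, 0.21 to 1.73 for XTH18 and 0.70 to 0.84 for XTH19. The median of the synthesis and turnover list ran from 0.24 to 0.87 and was 0.12 without the filter, which adds 2 dim genes, and the filter at 50% left no gene of that list to give a value. The XTH list's median ran from 0.018 to 0.13 and that of expansins from -0.023 to 0.15, the lowest without php replicate II.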
